A study of Rattus norvegicus with 4 samples.

Results

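The genes described here are members of the BCL2 family and of the death receptor pathway, which set the threshold at which a cell enters apoptosis. They were chosen by symbol, as Bcl2, Bcl2l1, Mcl1, Bcl2l11, Bbc3, Pmaip1, Bcl2a1, Fas and Tnfsf10, and 7 of the 9 listed symbols matched a gene name among the 30017 in the count matrices. Mcl1 and Bbc3 matched none and were not analysed here. Single cells were sequenced from esophagi of male Sprague-Dawley rats, 6 weeks old when assigned to groups, whose esophageal region was irradiated with X-rays. The single-dose group received 1 dose of 35 Gy and was sampled at day 7. The fractionated groups received 7 Gy daily for 5 days and were sampled at day 7 or at day 14. The control group received 5 doses of 0 Gy and was sampled at day 7, so day 14 has no unirradiated library of the same day. In every group the esophagi of 5 rats were pooled into 1 library, after shared cold shipment, enzymatic digestion and removal of dead cells. With 1 pool per group there are no replicates and no tests, and the 95% intervals given below cover counting error alone.

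Apoptosis through mitochondria is held back by anti-apoptotic BCL2 proteins (the products of Bcl2, Bcl2l1 and Bcl2a1) and started by BH3-only proteins, which bind and neutralise them (BIM from Bcl2l11, NOXA from Pmaip1). When the balance tips, the effectors BAX and BAK permeabilise the mitochondrial outer membrane and caspases are activated. A separate route begins at the cell surface, where ligands such as TRAIL, the product of Tnfsf10, and FAS ligand bind death receptors such as FAS. Several of these genes, including Pmaip1, Fas and Bax, are known targets of p53, the transcription factor activated by DNA damage.

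Promoter sequences are shown for 4 genes on which the results below turn: Pmaip1 and Tnfsf10 for differences between libraries, Bcl2a1 for its high level in leukocytes, and Fas for a level that hardly differed in blood endothelial cells. All 7 genes matched the RefSeq promoter table of build GRCr8, which gives 250 bases before and 50 bases after each start; the deposited counts were made on another build. Capitals mark matches, on either strand, to a CRE core (ACGTCA), an AP-1 element (TGANTCA), an NF-kB element or an interferon response element (GAAA, any 2 bases, GAAA). The Pmaip1 window lies at chr18:62255720-62256019, the Bcl2a1 window at chr8:98596556-98596855, the Fas window at chr1:241211905-241212204 and the Tnfsf10 window at chr2:112136689-112136988, all on the plus strand.
Pmaip1: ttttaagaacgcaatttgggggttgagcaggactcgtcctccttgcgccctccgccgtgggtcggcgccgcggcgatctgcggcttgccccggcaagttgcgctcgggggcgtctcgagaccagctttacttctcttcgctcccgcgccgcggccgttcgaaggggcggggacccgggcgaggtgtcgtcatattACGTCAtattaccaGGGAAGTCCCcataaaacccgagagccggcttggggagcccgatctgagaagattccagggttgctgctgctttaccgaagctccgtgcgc
Bcl2a1: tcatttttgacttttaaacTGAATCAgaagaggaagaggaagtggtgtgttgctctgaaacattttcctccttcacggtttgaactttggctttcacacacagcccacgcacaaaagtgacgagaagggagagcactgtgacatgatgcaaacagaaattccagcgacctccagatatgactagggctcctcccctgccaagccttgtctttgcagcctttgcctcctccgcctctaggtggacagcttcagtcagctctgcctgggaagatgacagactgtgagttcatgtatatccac
Fas: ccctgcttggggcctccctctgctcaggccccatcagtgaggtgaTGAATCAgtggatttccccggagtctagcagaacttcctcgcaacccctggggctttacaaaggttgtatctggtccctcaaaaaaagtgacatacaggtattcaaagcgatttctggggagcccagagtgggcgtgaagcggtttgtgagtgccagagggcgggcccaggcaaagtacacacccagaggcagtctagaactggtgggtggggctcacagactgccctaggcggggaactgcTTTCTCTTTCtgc
Tnfsf10: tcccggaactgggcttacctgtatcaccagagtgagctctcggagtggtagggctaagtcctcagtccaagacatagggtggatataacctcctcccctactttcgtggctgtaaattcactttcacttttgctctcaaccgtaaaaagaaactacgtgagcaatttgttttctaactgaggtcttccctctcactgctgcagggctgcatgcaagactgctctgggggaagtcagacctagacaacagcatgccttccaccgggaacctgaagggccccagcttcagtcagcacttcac

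In Pmaip1 the CRE core begins at an offset of -55 from the start base and the NF-kB element at -41. Bcl2a1 held an AP-1 element beginning at -231, and Fas held an AP-1 element at -205 and an interferon response element at an offset of 37. Of all 33469 promoters in the table, 7.94% held the CRE core, 7.33% the AP-1 element, 4.18% the NF-kB element and 3.92% the interferon response element. No match to a p53 half-site, which 7.98% of promoters held, was found in these 4 windows, and a match or its absence describes letters in the window and not binding.

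The 4 libraries held between 10468 and 12505 barcodes and between 59805782 and 109618791 unique molecular identifiers (UMIs), the count of distinct captured transcripts. After filtering, 9740 cells remained in the single-dose library, 9080 in the fractionated day 7 library, 10080 in the fractionated day 14 library and 11813 in the control library. Barcodes with over 20% mitochondrial UMIs made up 15.2%, 16.6%, 3.71% and 5.49% of these libraries in the same order. Between 26 and 38 barcodes were shared by any 2 libraries, at most 0.363% of the smaller one. Cells were assigned to types by marker genes. The 10 leading genes of each of the 11 types with at least 50 cells in some library held at least 3 of its own markers. Because the same markers assigned the cells, this describes the types and does not check them. The types were unevenly filled. Epithelial cells numbered 2966, 6160, 382 and 2384 in the single-dose, fractionated day 7, fractionated day 14 and control libraries, and fibroblasts numbered 565, 71, 3094 and 3724. Neutrophils reached 50 cells in the single-dose library alone.

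Levels are in CPM, the UMIs of a gene summed over the cells of a type and scaled to all UMIs of those cells. Because 3' UMIs are not scaled by length, levels are compared between cells and libraries and not between genes. Cells of a library are not replicates. A pair of gene and cell type was called higher or lower when its CPM differed by at least 2-fold, with at least 20 UMIs in the 2 libraries and at least 50 cells of the type in both. Between the single-dose and control libraries, 12 of 48 pairs of a member and a cell type were called higher and 16 lower. Over all genes the same rule called 10.3% higher and 13% lower. Between the fractionated day 7 and control libraries, 2 of 31 pairs were higher and 12 lower, against 14.2% and 16.3% over all genes. Between the fractionated day 14 and control libraries, 10 of 51 pairs were higher and 1 was lower, against 7.93% and 6.2%. The higher single-dose pairs included Bcl2a1 in epithelial, fibroblast, blood endothelial, mural and glial cells. Those of fractionated day 14 included it in the same types except blood endothelial cells. The part of leukocyte RNA in these pairs was not tested, so the counts are not read as a result of the whole family. Both higher pairs and 3 of the lower pairs of the fractionated day 7 comparison lay in its 71 fibroblasts, at 0 to 4 UMIs each, and their intervals include 1. No direction is read from the fibroblasts of that library below. The median log2 ratio to control over all genes lay between -0.10 and 0.28 by type and comparison.

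**Figure D1:**
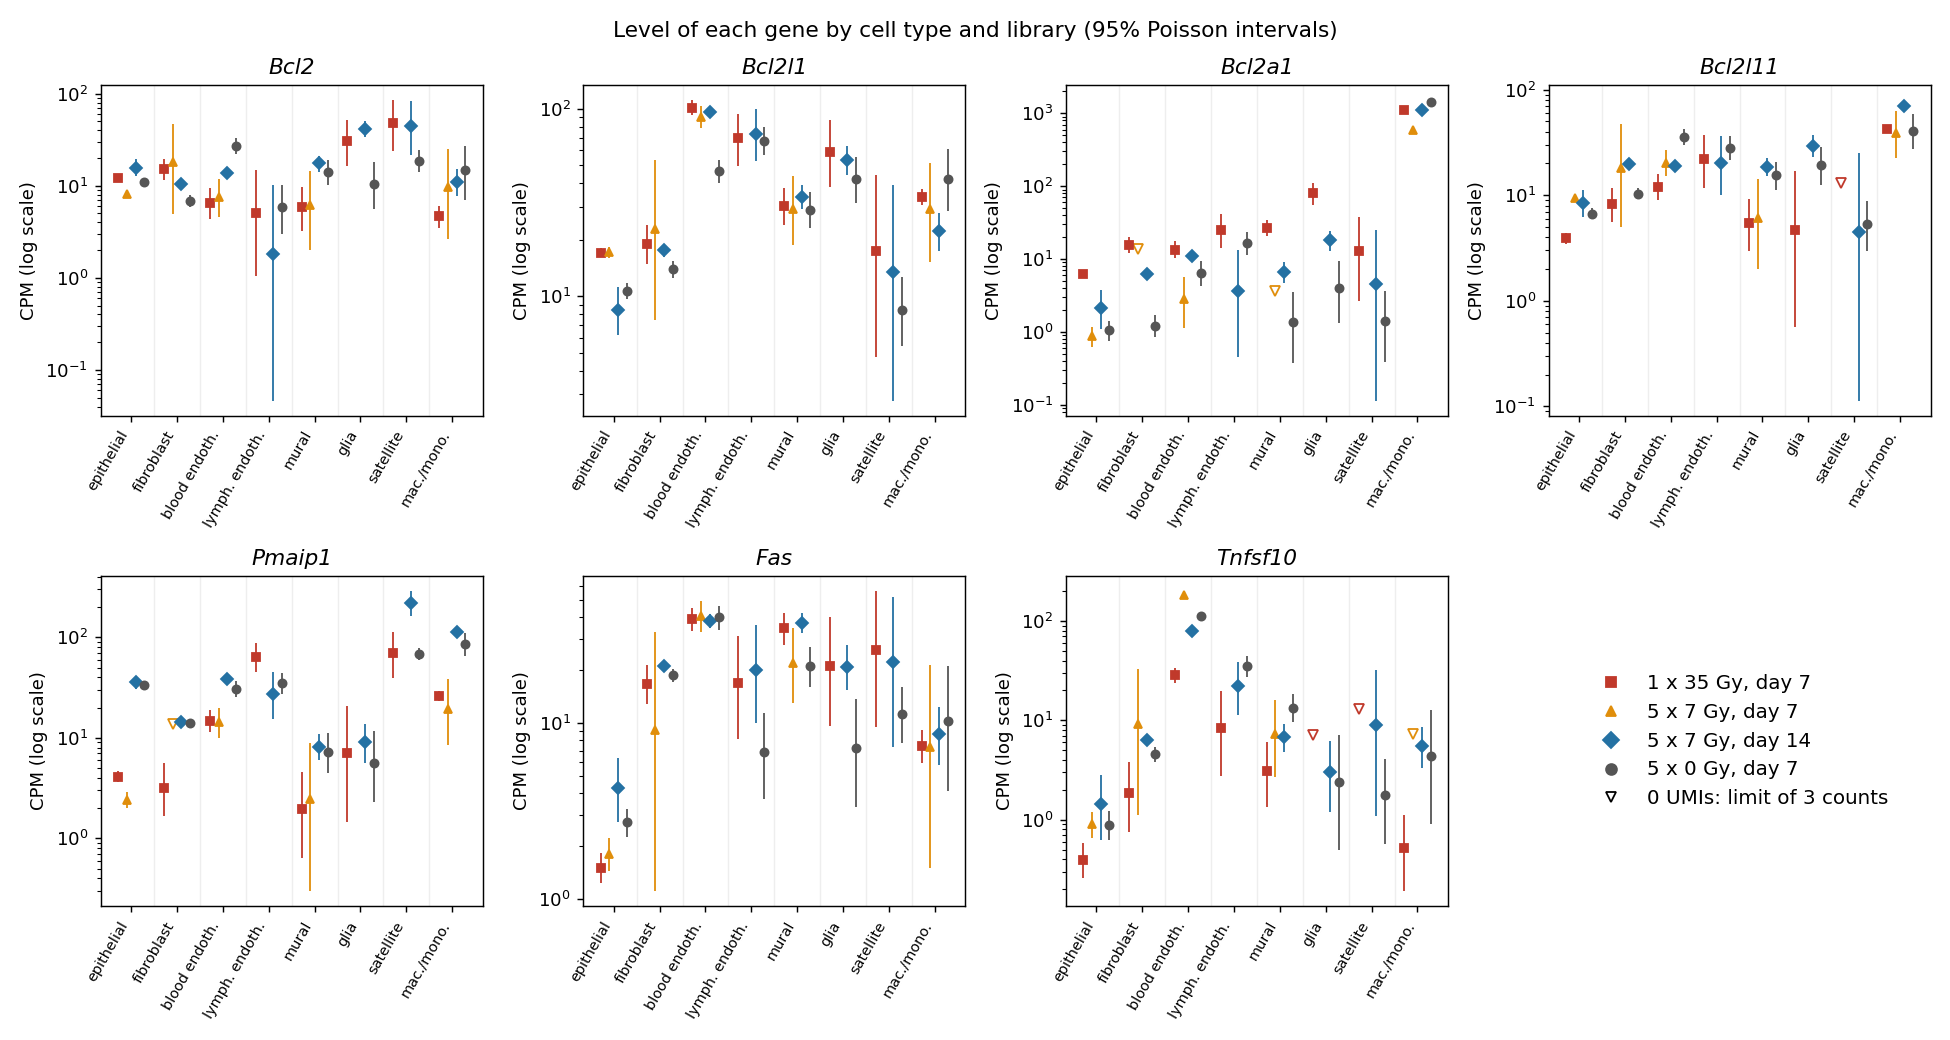
CPM on log axes (vertical) of each of the 7 genes in 8 cell types (horizontal), with 1 point per library and 95% Poisson intervals; an open triangle marks 0 UMIs, drawn at the level that 3 counts would give. Bcl2a1 is highest in macrophages or monocytes, Tnfsf10 in blood endothelial cells, and Pmaip1 in epithelial cells lies between 2.43 and 4.11 CPM in both irradiated day 7 libraries, against 33.5 CPM in the control library.

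Among the anti-apoptotic genes, Bcl2l1, which encodes BCL-XL, was higher in the blood endothelial cells of all 3 irradiated libraries. It measured 101 CPM after the single dose, 90.6 CPM at fractionated day 7 and 96.1 CPM at fractionated day 14, against 46.4 CPM in the control. The 3 irradiated levels lay close together and their intervals did not reach that of the control. The ratio to control was 2.19 (1.84 to 2.61) after the single dose and 2.07 (1.78 to 2.43) at fractionated day 14. At fractionated day 7 it was 1.95 (1.60 to 2.38), just under the 2-fold rule. Lymphatic endothelial cells did not show this difference, with 69.4 CPM after the single dose and 73.4 CPM at fractionated day 14, against 67.3 CPM in the control. In the control library lymphatic endothelial cells stood above blood endothelial cells in Bcl2l1, whereas in the single-dose and fractionated day 14 libraries blood endothelial cells ranked above them with overlapping intervals. The fractionated day 7 library held 20 lymphatic endothelial cells, too few for the comparison, at 243 CPM from 9 UMIs. Neutrophils of the single-dose library had 114 CPM, and their interval overlapped that of blood endothelial cells.

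In epithelial cells Bcl2l1 was at 17.1 CPM in both irradiated day 7 libraries and at 8.40 CPM at fractionated day 14, against 10.7 CPM in the control. Both day 7 ratios to control were below 2-fold, with log2 ratios of 0.68 (0.52 to 0.84) after the single dose and 0.69 (0.52 to 0.85) at fractionated day 7. Epithelial cells were also split by basal markers, those of the proliferative layer on the basement membrane, against suprabasal markers, those of the differentiating layers. Bcl2l1 was the higher in suprabasal cells in 3 libraries. Its suprabasal over basal ratio was 2.31 (2.03 to 2.62) after the single dose, 2.18 (1.86 to 2.56) at fractionated day 7 and 2.06 (1.65 to 2.59) in the control. At fractionated day 14 the ratio was 0.82 (0.38 to 1.65), from 36 basal and 11 suprabasal UMIs. Basal Bcl2l1 stood at 10.3, 10.1, 8.83 and 6.42 CPM in the single-dose, fractionated day 7, fractionated day 14 and control libraries. Basal cells at fractionated day 14 were thus not below those of the control. They made up 278 of its 382 epithelial cells, against 1159 of 2384 in the control. Suprabasal Bcl2l1 stood at 23.7, 22.1, 7.26 and 13.2 CPM in the single-dose, fractionated day 7, fractionated day 14 and control libraries, so the fractionated day 14 level was 3.05-fold (1.69 to 6.13) lower than the fractionated day 7 level. The split is a cut on a score, and between 5.76% and 10.0% of basal cells and between 4.81% and 15.2% of suprabasal cells lay within 0.25 of it.

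Bcl2, the founding member of the family, showed the opposite layering. Its basal over suprabasal ratio was 2.63 (2.25 to 3.07) after the single dose, 2.44 (1.99 to 3.01) at fractionated day 7, 2.35 (1.27 to 4.75) at fractionated day 14 and 2.60 (2.15 to 3.15) in the control. The basal excess thus had nearly the same size in the 4 libraries. Basal cells had 17.5, 12.4, 18.6 and 17.8 CPM of Bcl2 in the single-dose, fractionated day 7, fractionated day 14 and control libraries.

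In blood endothelial cells Bcl2 was lower in every irradiated library than in the control, the reverse of Bcl2l1. It measured 6.50 CPM after the single dose, 7.55 CPM at fractionated day 7 and 13.7 CPM at fractionated day 14, against 27.0 CPM in the control. The single-dose level was 4.16-fold (2.73 to 6.55) lower and the fractionated day 7 level 3.58-fold (2.19 to 6.17) lower than control. The fractionated day 14 level differed from the control by a log2 ratio of -0.98 (-1.33 to -0.62), which missed the 2-fold rule. Mural cells, the smooth muscle cells and pericytes of vessel and esophageal wall, had 5.83 CPM after the single dose and 6.12 CPM at fractionated day 7, against 14.2 CPM in the control, while fractionated day 14 mural cells had 17.5 CPM. The fractionated day 7 value in mural cells rests on 5 UMIs and its interval includes the control level.

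Glia, muscle satellite cells and fibroblasts had more Bcl2 in the single-dose and fractionated day 14 libraries than in the control, and macrophages or monocytes had less after the single dose. Macrophages or monocytes had 4.66 CPM after the single dose, 9.77 CPM at fractionated day 7 and 10.9 CPM at fractionated day 14, against 14.6 CPM in the control. The single-dose level was 3.14-fold (1.43 to 6.23) lower, from 10 UMIs in the control, and the intervals of the other ratios to control include 1. Macrophages with resident markers had 7.83 CPM (5.20 to 11.3) after the single dose, against 15.3 CPM (7.35 to 28.2) in the control, so their intervals overlapped. Cells with infiltrating monocyte markers had 3.24 CPM after the single dose. They made up 1611 of the 2129 cells of this type there, against 7 of 165 in the control. Glial cells had 30.6 CPM after the single dose and 41.5 CPM at fractionated day 14, against 10.5 CPM in the control, which is 2.92-fold (1.25 to 6.83) and 3.95-fold (2.20 to 7.68) higher. Muscle satellite cells, the stem cells of skeletal muscle, had 47.7 CPM after the single dose and 44.9 CPM at fractionated day 14, against 18.8 CPM in the control. Fibroblasts had 15.2 CPM after the single dose and 10.4 CPM at fractionated day 14, against 6.81 CPM in the control, and the first of these was 2.23-fold (1.63 to 3.02) higher. The irradiated glial and satellite values come from 10 to 13 UMIs, except for 97 UMIs in fractionated day 14 glia.

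**Figure D2:**
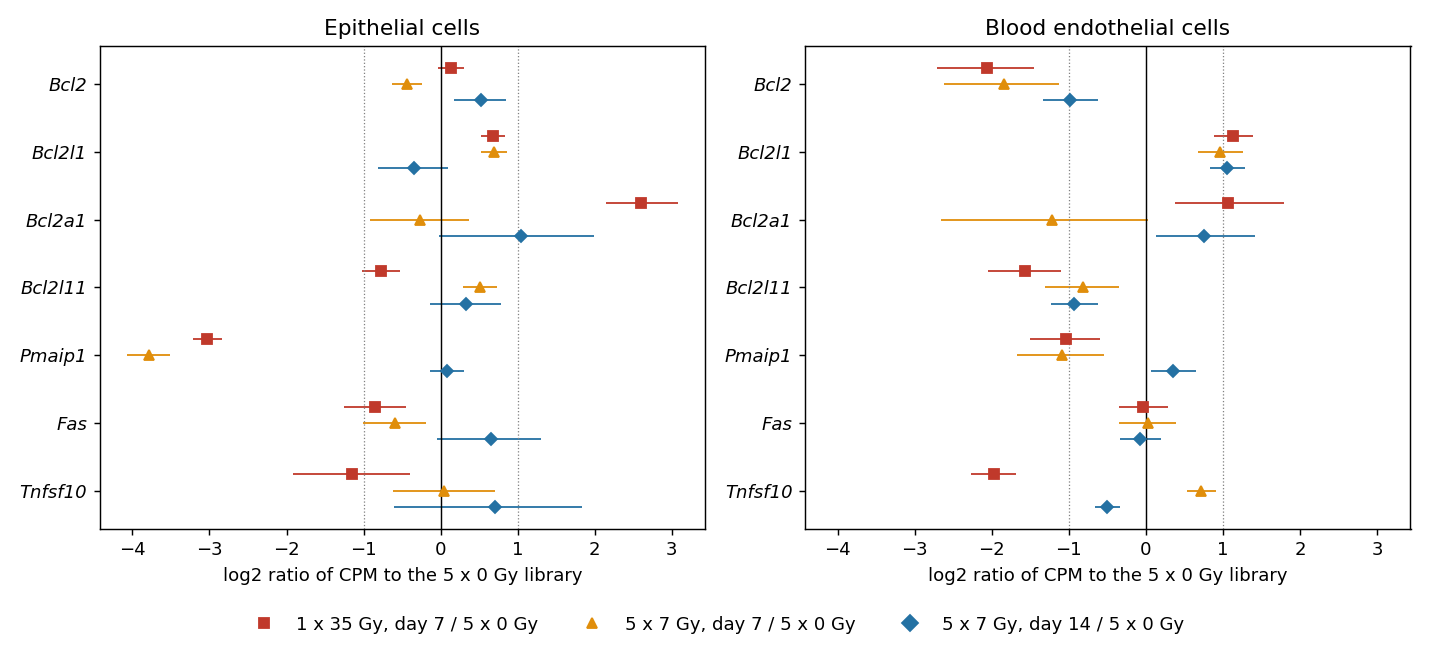
Log2 ratio of CPM to the control library (horizontal) for the 7 genes (vertical) in epithelial cells, left, and blood endothelial cells, right, with 1 symbol per irradiated library, 95% counting intervals and dotted lines at 2-fold. In blood endothelial cells Bcl2l1 lies to the right of 0 and Bcl2 and Bcl2l11 to the left in all 3 comparisons, Fas lies at 0, and in epithelial cells Pmaip1 lies 3.03 and 3.79 log2 units to the left in the day 7 libraries and near 0 at day 14.

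Bcl2a1, which encodes the NF-kB-inducible leukocyte protein A1, was highest in macrophages and other leukocytes. In macrophages or monocytes it measured 1125 CPM after the single dose, 594 CPM at fractionated day 7 and 1097 CPM at fractionated day 14, against 1436 CPM in the control. The fractionated day 7 level was 2.42-fold (2.10 to 2.79) lower than control. The single-dose and fractionated day 14 levels were within 2-fold of it. Neutrophils of the single-dose library had 892 CPM, and T, NK or innate lymphoid cells had 242 CPM after the single dose, 97.1 CPM at fractionated day 7 and 331 CPM at fractionated day 14.

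In most other types Bcl2a1 was low in the control library and higher after the single dose. Epithelial cells had 6.30 CPM after the single dose, 0.863 CPM at fractionated day 7 and 2.15 CPM at fractionated day 14, against 1.04 CPM in the control, so the single-dose level was 6.03-fold (4.42 to 8.43) higher. Fibroblasts had 15.7 CPM after the single dose and 6.30 CPM at fractionated day 14, against 1.22 CPM in the control. Glial cells had 80.1 CPM after the single dose and 18.0 CPM at fractionated day 14, against 4.04 CPM in the control. Mural cells had 26.8 CPM after the single dose and 6.58 CPM at fractionated day 14, against 1.38 CPM in the control. Blood endothelial cells had 13.5, 2.78, 10.8 and 6.45 CPM in the single-dose, fractionated day 7, fractionated day 14 and control libraries. Lymphatic endothelial cells, at 25.4 CPM after the single dose and 3.67 CPM at fractionated day 14, against 16.6 CPM in the control, and the 83 skeletal muscle fibres of the control library, at 174 CPM, were exceptions. Few cells carried these control levels. Bcl2a1 was detected in 4 of the 83 fibres, 9 of 484 lymphatic endothelial cells and 5 of 1016 blood endothelial cells. The counting intervals do not cover such clumping of UMIs in few cells.

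Levels of a myeloid gene in the same gates are given beside these. Tyrobp, which encodes a signalling adaptor of myeloid and NK cells, stood at 45.4 CPM in epithelial cells after the single dose, 5.40 CPM at fractionated day 7 and 9.83 CPM at fractionated day 14, against 1.71 CPM in the control. At fractionated day 7 Tyrobp was thus above the control and Bcl2a1 was not, and the same held in blood endothelial cells, where Tyrobp stood at 16.3 CPM, against 4.71 CPM in the control. It held in macrophages or monocytes too, where Tyrobp stood at 6050 CPM at fractionated day 7, against 2613 CPM in the control. In the single-dose library Bcl2a1 gave between 11.4 and 29.6 UMIs per 100 Tyrobp UMIs in the 7 types that are not leukocytes, beside 17.2 in macrophages or monocytes and 12.6 in neutrophils. At fractionated day 7 this ratio was 16.0 in epithelial cells and 17.1 in blood endothelial cells, beside 9.81 in macrophages or monocytes. At fractionated day 14 it lay between 16.7 and 60.9 in types that are not leukocytes, beside 42.2 in macrophages or monocytes. Values in the control library spread more widely, from 30.8 in muscle satellite cells to 250 in glia, from 4 and 5 Bcl2a1 UMIs. They were 61.1 in epithelial cells and 48.5 in fibroblasts, beside 55.0 in macrophages or monocytes. Blood endothelial cells had 137, from 26 and 19 UMIs, lymphatic endothelial cells 82.9 and skeletal muscle fibres 130.2. In those skeletal muscle fibres Tyrobp stood at 133 CPM. S100a9, a granule gene of neutrophils, stood at 461 CPM in single-dose epithelial cells and 0.0712 CPM in control epithelial cells. The macrophage marker list summed to between 338 and 28933 CPM over the types of the single-dose library and to between 132 and 25573 CPM over those of the control library, and the neutrophil list to between 113 and 146653 CPM, against between 2.12 and 76.1 CPM. The part of free RNA or of attached leukocytes in the Bcl2a1 levels of these types was not tested.

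**Figure D3:**
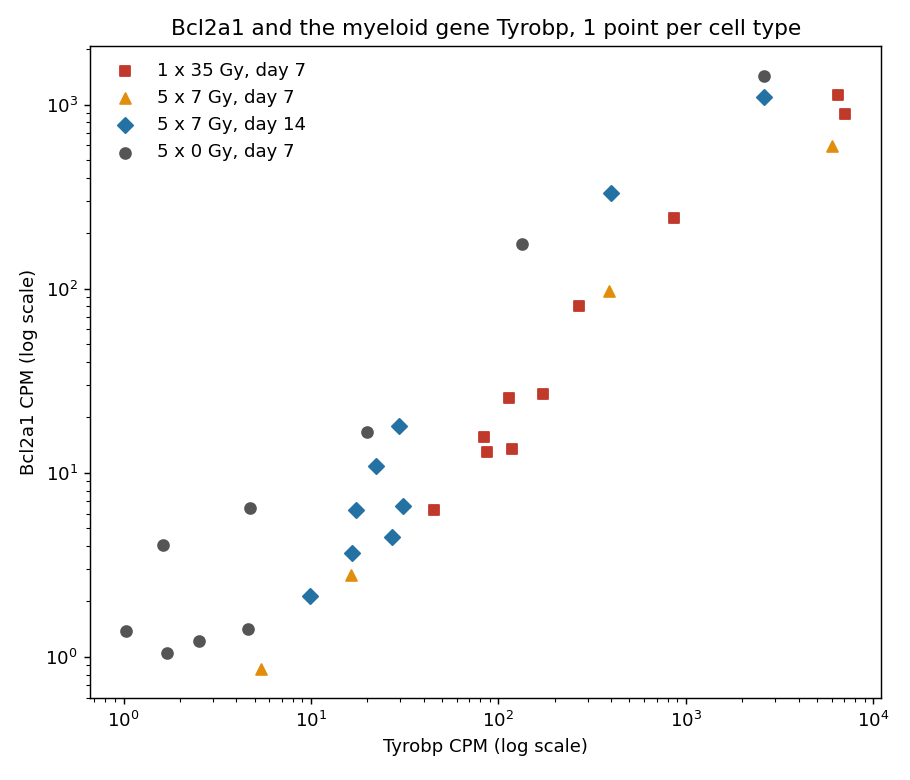
Bcl2a1 CPM (vertical, log axis) against Tyrobp CPM (horizontal, log axis), with 1 point per cell type of at least 50 cells in each library; types with 0 Bcl2a1 UMIs are not drawn. Points of the single-dose library lie along one band in which the types with more Tyrobp have more Bcl2a1, and in the control library the macrophages or monocytes lie at 1436 CPM of Bcl2a1, skeletal muscle fibres at 174 CPM and epithelial cells at 1.04 CPM.

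Of the BH3-only genes, Pmaip1, which encodes NOXA, an antagonist of MCL1 and A1, had the largest ratios of the 7 genes in the epithelial cells of both irradiated day 7 libraries. It measured 4.11 CPM after the single dose, 2.43 CPM at fractionated day 7 and 35.6 CPM at fractionated day 14, against 33.5 CPM in the control. The day 7 libraries were low and the day 14 library was at the control level. The single-dose level was 8.15-fold (7.16 to 9.30) lower and the fractionated day 7 level 13.8-fold (11.5 to 16.8) lower than control. The fractionated day 14 level was 14.6-fold (11.6 to 18.5) higher than the fractionated day 7 level. Basal and suprabasal cells shared the difference, as basal cells had 4.60, 2.95, 37.8 and 40.1 CPM and suprabasal cells 3.64, 2.06, 29.7 and 29.5 CPM in the single-dose, fractionated day 7, fractionated day 14 and control libraries.

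Pmaip1 was also lower at day 7 in several, but not all, other types. Blood endothelial cells had 14.9 CPM after the single dose, 14.3 CPM at fractionated day 7 and 38.8 CPM at fractionated day 14, against 30.5 CPM in the control. Macrophages or monocytes had 25.9 CPM after the single dose, 19.5 CPM at fractionated day 7 and 114 CPM at fractionated day 14, against 84.9 CPM in the control. In macrophages with resident markers (C1q genes, Cd163, Mrc1) the single-dose level was 5.60-fold (3.67 to 8.55) lower than control. These cells were split from infiltrating monocytes by a cut on a score. After the single dose 117 of 518 lay near that cut, by the distance used for the epithelial split, against 0 of 158 in the control. The part of infiltrating monocytes, which filled this type after the single dose, in the difference was not tested. Fibroblasts had 3.20 CPM after the single dose and 14.2 CPM at fractionated day 14, against 14.0 CPM in the control. Muscle satellite cells had 69.4 CPM after the single dose and 220 CPM at fractionated day 14, against 68.7 CPM in the control, and the fractionated day 14 level was 3.20-fold (2.29 to 4.40) higher. Lymphatic endothelial cells had 64.3 CPM after the single dose and 27.5 CPM at fractionated day 14, against 35.1 CPM in the control. Glial cells had 7.07 CPM after the single dose, from 3 UMIs, against 5.66 CPM in the control, from 7 UMIs. Lymphatic endothelial, muscle satellite and glial cells thus did not share the low single-dose level.

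Immediate-early genes, which respond within minutes to handling and to growth signals, were also low in both irradiated day 7 libraries. The 9 genes of that list (Fos, Fosb, Jun, Junb, Egr1, Atf3, Ier2, Ier3 and Zfp36) summed in epithelial cells to 1526 CPM after the single dose, 288 CPM at fractionated day 7 and 16849 CPM at fractionated day 14, against 17071 CPM in the control. Over all types with at least 50 cells the sum lay between 1070 and 5004 CPM in the single-dose library, between 259 and 558 CPM at fractionated day 7 and between 14739 and 76226 CPM at fractionated day 14, against between 17071 and 62750 CPM in the control. These ranges of the day 7 irradiated libraries and of the other libraries did not overlap. The immediate-early sum was thus also low in the types whose Pmaip1 was not lower after the single dose. It was 1070 CPM in lymphatic endothelial, 3859 CPM in muscle satellite and 2511 CPM in glial cells of the single-dose library. The control sums of these types were 28196, 48796 and 62750 CPM. Heat shock genes ranged from 264 to 2455 CPM in the single-dose library, from 144 to 1583 CPM at fractionated day 7 and from 3763 to 16248 CPM at fractionated day 14, against 7190 to 18574 CPM in the control. NF-kB feedback genes such as Nfkbia and Tnfaip3 summed in epithelial cells to 143, 47.4, 1940 and 1895 CPM in the single-dose, fractionated day 7, fractionated day 14 and control libraries. Whether radiation or the handling of each pool set the Pmaip1 level was not tested, and with 1 pool per group they cannot be told apart.

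**Figure D4:**
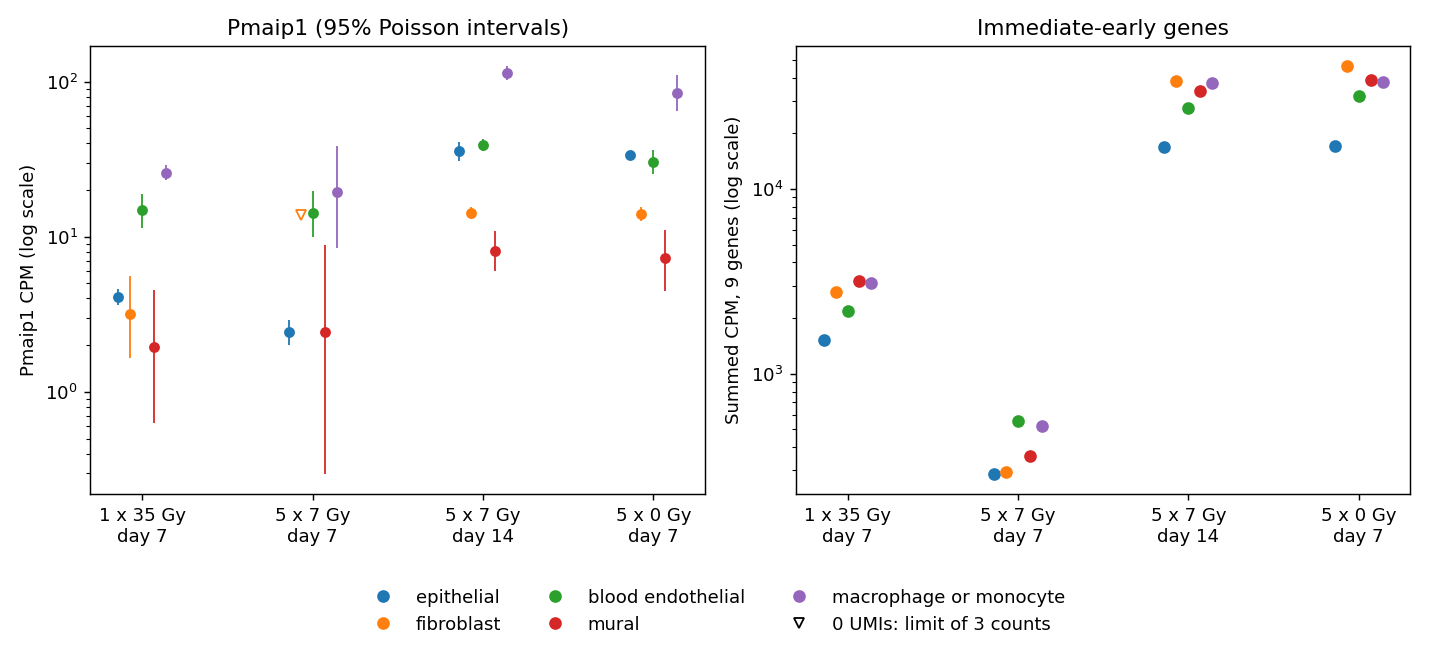
Left, Pmaip1 CPM on a log axis in 5 cell types (colours) of each library (horizontal), with 95% Poisson intervals; right, the summed CPM of the 9 immediate-early genes on a log axis in the same types and libraries. Both panels are lower in the 2 irradiated day 7 libraries than in the fractionated day 14 and control libraries, apart from fractionated day 7 fibroblasts with 0 Pmaip1 UMIs, and in epithelial cells Pmaip1 is at 4.11, 2.43, 35.6 and 33.5 CPM.

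Bcl2l11, which encodes BIM, differed in another way. In epithelial cells it measured 3.91 CPM after the single dose, 9.48 CPM at fractionated day 7 and 8.40 CPM at fractionated day 14, against 6.67 CPM in the control. The day 7 libraries, both low in Pmaip1, stood on opposite sides of the control in Bcl2l11, and the fractionated day 7 level was 2.42-fold (2.08 to 2.83) above the single-dose level. Like Bcl2, Bcl2l11 was higher in basal than in suprabasal cells, by 2.21-fold (1.70 to 2.90) after the single dose, 1.80-fold (1.49 to 2.17) at fractionated day 7, 2.54-fold (1.07 to 7.31) at fractionated day 14 and 2.46-fold (1.92 to 3.15) in the control.

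In blood endothelial cells Bcl2l11 was at 12.1 CPM after the single dose, 20.3 CPM at fractionated day 7 and 18.8 CPM at fractionated day 14, against 35.7 CPM in the control. The 3 irradiated levels were below the control, and the single-dose level was 2.96-fold (2.14 to 4.15) lower. Mural cells had 5.44 CPM after the single dose and 6.12 CPM at fractionated day 7, against 15.5 CPM in the control, and fractionated day 14 mural cells had 18.7 CPM. Among types with at least 50 cells, macrophages or monocytes held the highest Bcl2l11 in each library, with 42.4 CPM after the single dose, 39.1 CPM at fractionated day 7 and 70.5 CPM at fractionated day 14, against 41.0 CPM in the control. The interval of the next type overlapped it in all 4 libraries.

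Fas, the death receptor for FAS ligand, was nearly constant in blood endothelial cells. It measured 39.0 CPM after the single dose, 40.5 CPM at fractionated day 7 and 38.0 CPM at fractionated day 14, against 39.9 CPM in the control. The log2 ratios to control were -0.03 (-0.36 to 0.29), 0.02 (-0.35 to 0.39) and -0.07 (-0.33 to 0.19), and their intervals reach no further than 0.39 from 0. In the same cells Bax, another p53 target, measured 451 CPM after the single dose, 319 CPM at fractionated day 7 and 416 CPM at fractionated day 14, against 160 CPM in the control. Of the p53 targets outside cell death that had enough UMIs there, 5 of 8 were called higher after the single dose, 5 of 8 at fractionated day 7 and 7 of 9 at fractionated day 14, where the rule called 8.48%, 12.4% and 5.81% of all genes higher.

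Fas in other stromal types differed between types and libraries. Fibroblasts had 16.8 CPM after the single dose and 21.2 CPM at fractionated day 14, against 18.7 CPM in the control. Mural cells had 34.6 CPM after the single dose, 22.0 CPM at fractionated day 7 and 37.2 CPM at fractionated day 14, against 21.1 CPM in the control, all within 2-fold. Glial cells had 21.2 CPM after the single dose and 20.9 CPM at fractionated day 14, against 7.27 CPM in the control, and the fractionated day 14 level was 2.88-fold (1.40 to 6.67) higher. Lymphatic endothelial cells had 16.9 CPM after the single dose and 20.2 CPM at fractionated day 14, against 6.83 CPM in the control; the fractionated day 14 ratio was 2.96 (1.21 to 7.01), and the single-dose interval included 1. Epithelial cells had the lowest Fas of any type in the single-dose, fractionated day 14 and control libraries, with 1.51, 4.29 and 2.73 CPM, and 1.81 CPM at fractionated day 7. Neutrophils of the single-dose library had 50.1 CPM.

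Tnfsf10, which encodes the death ligand TRAIL, was a gene of blood vessels in all 4 libraries. Blood endothelial cells had 28.5 CPM after the single dose, 184 CPM at fractionated day 7 and 79.0 CPM at fractionated day 14, against 112 CPM in the control. The single-dose level was 3.93-fold (3.21 to 4.83) lower than control. The fractionated day 7 level was above control by a log2 ratio of 0.72 (0.53 to 0.91) and the fractionated day 14 level below it by a log2 ratio of -0.51 (-0.67 to -0.34), both under 2-fold. Between the irradiated day 7 libraries, with equal nominal total dose and the same day, Tnfsf10 was 6.46-fold (5.29 to 7.95) higher after fractionation than after the single dose. No other type of at least 50 cells in the same library had an interval that reached that of blood endothelial cells.

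Lymphatic endothelial cells ranked next in the libraries that held at least 50 of them, with 8.46 CPM after the single dose and 22.0 CPM at fractionated day 14, against 35.1 CPM in the control. The single-dose level was 4.15-fold (1.70 to 13.2) lower, from 5 UMIs. Mural cells had 3.11, 7.34, 6.75 and 13.5 CPM in the single-dose, fractionated day 7, fractionated day 14 and control libraries, and the single-dose level, from 8 UMIs, was 4.33-fold lower. Epithelial cells had 0.397, 0.904, 1.43 and 0.878 CPM of Tnfsf10 in the single-dose, fractionated day 7, fractionated day 14 and control libraries. Fibroblasts had 1.87 CPM after the single dose, from 7 UMIs, and 6.30 CPM at fractionated day 14, against 4.55 CPM in the control. Blood endothelial, lymphatic endothelial, mural and epithelial cells thus each had their lowest level in the single-dose library. The low single-dose level was therefore not confined to vessel types.

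Set directly against each other at day 7, the fractionated and single-dose libraries differed in 11 of 33 pairs, with 5 higher and 6 lower in the fractionated library, against 12.2% and 15.3% over all genes. The member shares, 15.2% higher and 18.2% lower, were near those over all genes, and 8 of the 11 pairs had an interval that leaves out 1. Tnfsf10 and Bcl2l11 made up 4 of the 5 higher pairs and Bcl2a1 made up 5 of the 6 lower pairs. These counts include Bcl2l11 and Bcl2a1 in the 71 fibroblasts of the fractionated library, at 4 and 0 UMIs, from which no direction is read. From fractionated day 7 to day 14, 15 of 36 pairs were higher and 2 lower at day 14, against 19.7% and 13.8% over all genes. Pmaip1 made up 6 of the 15 higher pairs. It had 0 UMIs at day 7 in fibroblasts and in T, NK or innate lymphoid cells, and the intervals in fibroblasts and in mural cells, with 2 UMIs at day 7, include no difference.

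The wider cell death pathway was read from a list of 48 other genes, of which 46 matched. In epithelial cells 6 of 42 genes with enough UMIs were called higher and 4 lower after the single dose, against 9.76% and 11.1% of all genes in that type. The median log2 ratio of the list there was 0.41, against 0.16 over all genes. Among the higher genes were Ripk3, a kinase of necroptosis, at 13.4 CPM after the single dose, against 3.96 CPM in the control, and Bak1, a pore-forming effector, at 20.9 CPM, against 6.65 CPM. Bid, the BH3-only substrate of caspase-8, stood at 1.59 CPM, against 0.404 CPM. Among the lower genes were Tnfrsf11b (osteoprotegerin, a decoy receptor that binds TRAIL), Tnfsf12 (the ligand TWEAK) and Birc3 (an inhibitor of apoptosis), by 7.36-fold, 5.42-fold and 2.79-fold.

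At fractionated day 7 epithelial cells had 3 of 42 genes higher and 8 lower, against 11.5% and 12.4% of all genes, with a median log2 ratio of -0.18, against 0.04 over all genes. The higher genes were Bcl2l2 (BCL-W), Mlkl (the executor of necroptosis) and Casp2, by 2.67-fold, 2.37-fold and 2.23-fold. Tnfrsf11b was 40.0-fold (19.1 to 101) lower, with 7 UMIs in the fractionated day 7 library against 237 in the control. Tnfrsf12a, the TWEAK receptor, was at 8.79 CPM, against 55.1 CPM in the control, and Tnfsf12 was 4.49-fold lower. At fractionated day 14 Bak1 was 2.04-fold (1.56 to 2.64) higher and Birc3 2.55-fold (1.49 to 4.73) lower in epithelial cells, and no other gene of the 42 was called, against 7.56% and 6.53% of all genes.

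In blood endothelial cells 2 of 38 pathway genes were higher and 5 lower after the single dose, against 8.48% and 12.6% of all genes. At fractionated day 7 there were 1 of 37 higher and 4 lower, against 12.4% and 10.5%, and at fractionated day 14 there were 2 of 39 higher and 2 lower, against 5.81% and 4.97%. The median log2 ratios were -0.05, 0.02 and 0.01, against 0.02, 0.10 and 0.03 over all genes. Bax was 2.82-fold (2.58 to 3.09) higher after the single dose and 2.61-fold (2.40 to 2.83) higher at fractionated day 14. Ripk3 was at 16.7 CPM after the single dose and 4.37 CPM at fractionated day 7, against 93.3 CPM in the control, so the gene that was higher in single-dose epithelium was lower in the endothelium of the same library. Ripk1, a kinase upstream of it, was 2.54-fold lower and Bnip3, a mitophagy receptor with a BH3 motif, 2.12-fold lower after the single dose. At fractionated day 7 Tnfrsf25, the receptor DR3, was 2.03-fold higher and Birc3 and Birc5 (survivin) were 3.87-fold and 2.34-fold lower. At fractionated day 14 Endog, a mitochondrial nuclease, was 2.02-fold higher, and Birc5 and Tnfrsf11b were 3.42-fold and 2.14-fold lower.

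In macrophages or monocytes 10 of 39 pathway genes were higher and 8 lower after the single dose, against 19.2% and 16.4% of all genes. At fractionated day 7 there were 2 of 21 higher and 7 lower, against 16% and 17%, and at fractionated day 14 there were 1 of 33 higher and 2 lower, against 9.51% and 5.81%. Bad, a BH3-only gene, Mlkl and Tnfrsf1b, the second TNF receptor, were 2.69-fold, 4.21-fold and 2.60-fold higher after the single dose. Tnfrsf12a, Birc5 and Ripk1 were 3.79-fold, 3.74-fold and 2.77-fold lower. Bnip3l, a mitophagy receptor, was 2.21-fold higher and Ripk1 4.99-fold lower at fractionated day 7, and Birc5 and Bnip3 were 2.98-fold and 2.05-fold lower at fractionated day 14. The control library held 165 cells of this type, and 1611 of the 2129 in the single-dose library carried infiltrating monocyte markers, against 7 in the control library.

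The genes whose levels followed each member most closely were sought over 34 pairs of library and cell type among 10590 genes, by Pearson's r of log2(CPM + 10). The points share libraries and cells, so r is a description. Tnfsf10 was followed by the endothelial genes Mmrn2 (r = 0.93) and Cyyr1 (r = 0.92) and by Wipf3 (r = 0.91). Bcl2a1 was followed by Tyrobp (r = 0.95) and Tnfaip8l2 (r = 0.94). For Bcl2l11 these were Rab8b (r = 0.89), Cyba, an oxidase subunit of phagocytes (r = 0.83), and Apobr (r = 0.81). Bcl2l1 was followed by RT1-T24-3, Lrg1 and Tcn2, each at r = 0.82. For Pmaip1 the values were lower, with March7, Tgif1 and the NF-kB gene Rel at r = 0.74, 0.74 and 0.71. Fas was followed by Txnrd1, Rbm18 and Tgoln2 (r = 0.76, 0.75 and 0.73) and Bcl2 by Cdk5rap2, Mdm4, a p53 regulator, and Ggact (r = 0.67, 0.63 and 0.62).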

How the data were processed

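Per the labels' protocols, cells were captured with 10x Genomics Chromium 3' v3.1 chemistry. Raw UMI counts, which the authors deposited as 1 matrix per library without normalization, were used. Cell Ranger 5.0.0, and mRatBN7.2 and rn7 as builds, come from the submitters' processing notes. No source used here names the annotation release. Barcodes were kept at 200 or more genes, 500 or more UMIs and up to 20% mitochondrial UMIs. Each cell took the type with the highest mean standardised marker score of 17 lists if it led the next by 0.25 and at least 3 of the markers were detected. Cells scoring 1 or more for another, unrelated type were left out as mixed. Related types, between which such cells were kept, were blood and lymphatic endothelial cells, and satellite cells and muscle fibres. Macrophages or monocytes, neutrophils and dendritic cells were also related. Between 12.7% and 20.8% of kept cells took no type. Scrublet marked 2.22% to 4.18% of cells, below the 7.26% to 9.45% expected, and its calls were left out as an alternative only, so uncalled doublets may remain.

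Counts were summed per library and type and scaled to CPM, with exact Poisson intervals for levels and exact conditional binomial intervals for ratios. A level at 0 UMIs allows up to that of 3 counts. Named pathway genes were up to 3 higher and 3 lower per comparison in epithelial, blood endothelial and macrophage cells, with at least 50 UMIs, ranked by the interval bound nearest to 1. The tools were Python 3.11.15, pandas 2.3.3, scipy 1.17.1 and scanpy 1.11.5. The call rule was run on simulated Poisson counts, the model that the intervals assume. These counts lack clumping of UMIs in few cells, so the run cannot show how the rule behaves where UMIs clump. The members and lists were chosen with earlier results of these data known. Of the genes that followed Bcl2a1 most closely, 1 is not reported here.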

Additional observations from a re-analysis of the deposited data

Results flagged for a closer look

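Bcl2 moved in opposite directions in 2 cell types of the same comparison. Between the single-dose and control libraries its log2 ratio was 1.54 in glial cells and -2.06 in blood endothelial cells, a difference of 3.60. Bcl2a1 did so between the fractionated day 14 and control libraries, with a log2 ratio of 2.37 in fibroblasts and -2.18 in lymphatic endothelial cells, a difference of 4.54. The lymphatic value rests on 2 UMIs at fractionated day 14, against 34 in the control, which came from 9 of 484 cells. With 1 pooled library per group neither difference was tested.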

How the results depend on the processing

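Counts of called pairs of a member and a cell type depended on the minimum numbers of UMIs and cells. For the single dose, 12 pairs were higher, with 3 at a minimum of 100 UMIs and 6 at a minimum of 200 cells, and 16 were lower, with 8 at 100 UMIs. For fractionated day 7, 2 were higher, with 0 under a stricter cell filter, 4 with each cell given the same weight, 1 under median-of-ratios scaling and 0 at 200 cells, and 12 were lower, with 6 at 100 UMIs and 7 at 200 cells. Requiring an interval that leaves out 1, an alternative chosen after seeing the data, left 0 higher and 6 lower. For fractionated day 14, 10 were higher, with 4 at 100 UMIs, and 1 was lower, with 3 under the stricter filter, 3 with equal weights, 2 under median-of-ratios scaling, 0 without Scrublet calls, 3 with the assignment margin doubled, 0 at 100 UMIs, 2 with at least 1 UMI in each library and 0 at 200 cells. The minimums leave fewer pairs by construction, and the cause of the other changes was not tested. Of 625 recomputed log2 ratios of single members under 5 alternatives, 596 moved by less than their counting interval, 28 moved by more and 1 reversed, that of Bcl2 in fractionated day 7 fibroblasts, at -0.11 with equal weights and 1.43 as reported. Depth limits the types with few cells, such as the 71 fibroblasts of that library, and pairs with 0 UMIs in a library were given no log2 ratio. No paired analysis was possible because each group is 1 pooled library.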
